A study of Mus musculus with 2 samples.

Results

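The 3 E protein genes of the mouse, Tcf3, Tcf12 and Tcf4, were found by symbol among the 8249 genes of an RNA sequencing table of 2 L-DKO mouse lymphomas, and each had a value in both tumours. The first tumour grew in a Peyer's patch, part of the lymphoid tissue of the intestine, in a mouse aged 26 weeks, and is called the gut tumour here. The second, the thymus tumour, came from a mouse aged 30 weeks. Both were negative for the CD1d tetramer, the reagent that stains invariant natural killer T cells, and the series title ties the strain to high levels of E proteins. The labels do not spell out L-DKO. As background, in published work mice of that name lack Id2 and Id3 in T lineage cells through a Cre driven by the Lck promoter. Both tumours share that genotype, so neither is a control for it. Per the labels' protocols the RNA came from lysed tumour tissue, whereas the series design speaks of sorted lymphoma cells, a sort that would remove other cell types, and these sources do not settle which holds. Each tumour gave 1 library, so no difference below has a replicate check or a test, and site, mouse and age cannot be told apart. Values are FPKM, fragments scaled by transcript length and library size, which allow levels of different genes to be set side by side. Each rests on the deposited numbers being log2(FPKM + 1), which no source states and which was worked out from the numbers themselves. Sequencing depth is unknown.

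E proteins are basic helix-loop-helix (bHLH) transcription factors that bind the E-box, CANNTG, as dimers with each other or with tissue-restricted partners. Id proteins have the dimerisation domain without the DNA-binding part, so they hold E proteins in dimers that do not bind. In the thymus E2A, made from Tcf3, and HEB, made from Tcf12, act together to drive early T cell development and to hold cells at checkpoints until an antigen receptor is made. E2-2, made from Tcf4, is the E protein known for plasmacytoid dendritic cells and is also used by B cells. These values measure messenger RNA, not E protein amount or DNA binding.

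The starts of Tcf3 and Tcf12, each of which had nearly the same level in the gut tumour as in the thymus tumour, are shown with E-boxes in capitals, the letters that E proteins recognise. Each line gives the 250 bases before an annotated start, 5′ to 3′, from RefSeq's GRCm38.p6 assembly, on the minus strand at chr10:80433636-80433885 for Tcf3, at chr9:72111820-72112069 for the outermost Tcf12 start and at chr9:71896097-71896346 for an internal Tcf12 start. That build differs from mm9, which the submitters used, so the windows locate no read.
Tcf3: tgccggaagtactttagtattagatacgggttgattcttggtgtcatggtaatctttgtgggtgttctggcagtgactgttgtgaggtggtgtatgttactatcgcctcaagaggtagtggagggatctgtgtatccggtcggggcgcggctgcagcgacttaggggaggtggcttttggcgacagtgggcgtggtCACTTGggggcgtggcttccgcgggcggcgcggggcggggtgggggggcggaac
Tcf12 outermost start: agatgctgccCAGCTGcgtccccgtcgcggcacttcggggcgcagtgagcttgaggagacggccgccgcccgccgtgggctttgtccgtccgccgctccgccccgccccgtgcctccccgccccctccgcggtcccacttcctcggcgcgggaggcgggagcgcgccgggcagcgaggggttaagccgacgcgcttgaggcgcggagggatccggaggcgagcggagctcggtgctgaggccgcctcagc
Tcf12 internal start: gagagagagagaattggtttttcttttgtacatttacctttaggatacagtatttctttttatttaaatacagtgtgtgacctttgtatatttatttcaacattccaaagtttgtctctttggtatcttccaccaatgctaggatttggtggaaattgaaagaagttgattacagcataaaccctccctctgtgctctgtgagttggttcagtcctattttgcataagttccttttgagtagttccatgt
The Tcf3 window held 1 E-box, CACTTG, which begins 54 bases before the start. The outermost Tcf12 window held 1, CAGCTG, which begins 240 bases before the start, and the internal Tcf12 window held 0. A further Tcf12 window, at chr9:72111202-72111451 and not shown, held 1, CAAGTG, which begins 149 bases before its start, and its G and C came to 78.0%. The search used CANNTG, whose reverse complement is again CANNTG, so it covers both strands, and no matches overlapped. Of 32851 promoter windows of this length, 66.2% held at least 1 CANNTG and 13.0% held CAGCTG, so a match of this kind is common. The windows differed in base composition, with G and C making up 59.6% of the Tcf3 window, 76.8% of the outermost Tcf12 window and 34.8% of the internal window. The deposited value is per gene, so it does not tell which Tcf12 start was used.

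Tcf12 was the most abundant E protein transcript in both tumours. It stood at 200.3 FPKM in the gut tumour and 179.8 FPKM in the thymus tumour, 0.15 apart in log2(FPKM + 1), gut minus thymus. The gene ranked 871st of 8249 in the gut tumour and 912th in the thymus tumour, above 89.4% and 88.9% of the genes listed. Tcf12 was therefore a high transcript at both sites, and its place in the order of genes moved by only 41. Among the 28 bHLH genes measured it was 2nd by FPKM in the gut tumour, behind Myc at 229 FPKM, and 1st in the thymus tumour.

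Tcf3 stood near the middle of the genes listed, and its levels in the tumours were almost the same. It was at 41.0 FPKM in the gut tumour and 40.9 FPKM in the thymus tumour, a difference of 0.0049 in log2(FPKM + 1). The median gene was at 31.2 and 32.6 FPKM, so Tcf3 lay slightly above it in each library. As deposited, only 23 of the 8245 genes tested, those with at least 1 FPKM in at least 1 tumour, had a smaller difference in size. The Tcf3 difference was 0.53 when rescaled to the same total and 0.45 with the authors' standard scores, so that near-equality depends on scaling. Its rank was 3483rd in the gut tumour and 3543rd in the thymus tumour. E2A messages E12 and E47, which differ in the exon for the DNA-binding domain, are pooled in this value.

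Tcf4 was low in the gut tumour and abundant in the thymus tumour. It stood at 2.87 FPKM in the first and 105 FPKM in the second, a difference of -4.78 in log2(FPKM + 1), and the FPKM ratio was 36.7-fold. In the gut tumour it was above only 5.31% of the genes listed, whereas in the thymus tumour it was above 80.7%. Its rank was 7811th in the gut tumour and 1591st in the thymus tumour. Genes 2 or more apart on this scale, that is 4-fold, were called, and 1 of the 3 E protein genes, Tcf4, was past it. Of all genes tested, 19.9% were at least 4-fold apart, 7.84% higher in the gut tumour and 12% higher in the thymus tumour. Those shares, 646 and 991 genes, depended on scaling, with 1197 and 641 when the libraries were rescaled to the same total and 1218 and 624 with the authors' standard scores. Only 54 of the 8245 genes, Tcf4 among them, had a difference of -4.78 or beyond in the direction of the thymus tumour. In a bulk sample, fewer cells that express Tcf4 and less Tcf4 RNA per cell cannot be told apart. A value of 2.87 FPKM is also less certain than the higher values, and no counting interval can be given without counts.

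**Figure D1:**
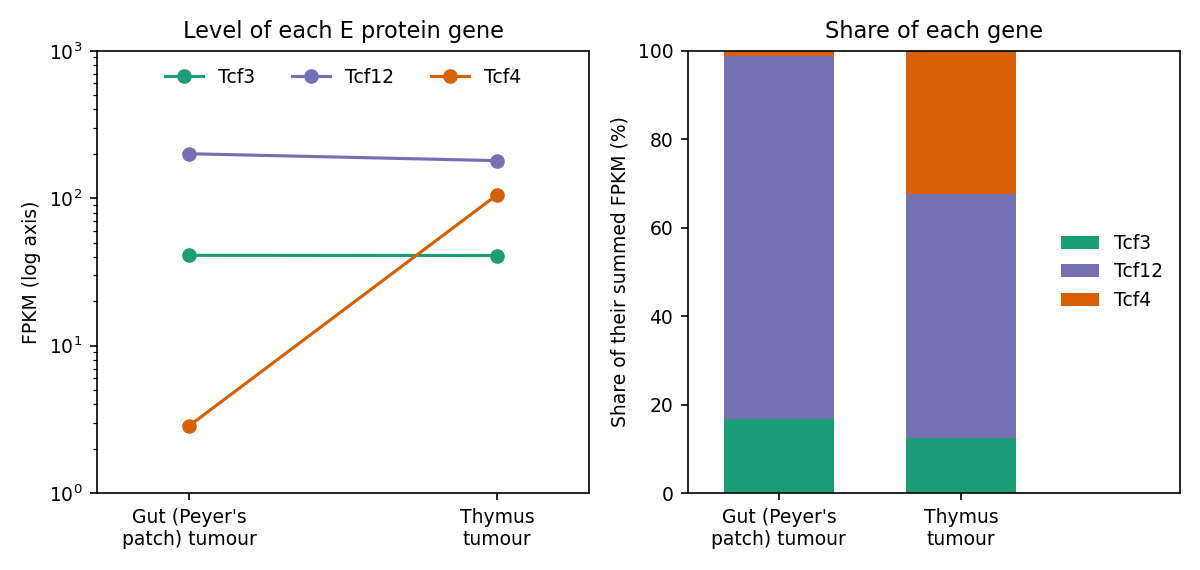
Left, FPKM of Tcf3, Tcf12 and Tcf4 on a log axis in the gut and thymus tumours, 1 library each, with lines joining the values of a gene. Right, the share (%) of each gene in their summed FPKM; Tcf4 goes from 1.18% in the gut tumour to 32.3% in the thymus tumour, while the Tcf3 and Tcf12 lines on the left are nearly flat.

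The order of the E protein genes differed between the tumours. In the gut tumour it was Tcf12, Tcf3, Tcf4, and in the thymus tumour Tcf12, Tcf4, Tcf3. Summed over the 3 genes as deposited, E protein transcripts came to 244 FPKM in the gut tumour and 326 FPKM in the thymus tumour, or 1.33 times as much. That ratio depends on how the libraries are scaled to each other. Rescaled to the same total, Tcf12 moved to 0.69 and Tcf3 to 0.53, both toward the gut tumour. The sum was not recomputed there, so its direction is not settled. Tcf3 and Tcf12 alone summed to 241 and 221 FPKM, so the higher sum in the thymus tumour as deposited came with Tcf4. Of the sum, Tcf12 held 82.0% in the gut tumour and 55.2% in the thymus tumour, Tcf3 held 16.8% and 12.5%, and Tcf4 held 1.18% and 32.3%.

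Ratios between these genes within a library do not depend on how the libraries are scaled to each other. The Tcf12 to Tcf3 ratio of FPKM was 4.88 in the gut tumour and 4.40 in the thymus tumour, which differ by 0.15 on the log2 scale. The Tcf12 transcript was thus the larger of the pair at each site, by a similar factor. The Tcf4 to Tcf3 ratio was 0.070 in the gut tumour and 2.58 in the thymus tumour, a log2 difference of -5.20. The Tcf12 to Tcf4 ratio was 69.8 and 1.71, and the log2 difference of its inverse, Tcf4 to Tcf12, was -5.35. Thus Tcf4 was the minor E protein transcript at the gut site and stood within 2-fold of Tcf12 at the thymus site.

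**Figure D2:**
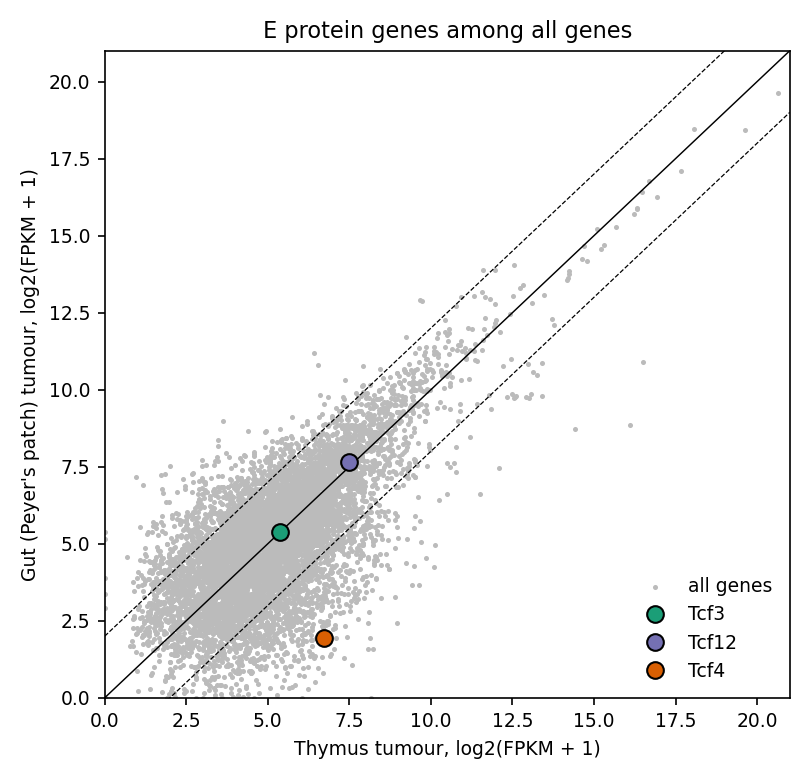
Each grey point is a gene, with log2(FPKM + 1) in the thymus tumour on the x axis and in the gut tumour on the y axis, 1 library each; the solid line marks equal values and the dashed lines a difference of 2 (4-fold). Tcf3 and Tcf12 lie on or beside the solid line, and Tcf4, at 6.73 and 1.95, lies well below the lower dashed line.

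The gene models differ in size and complexity, which bears on values scaled by transcript length. In GENCODE M21, an annotation of the GRCm38 build used here for structure alone, Tcf3 on chromosome 10 spans 24.1 kb and has 12 coding transcripts of 430 to 2950 bases. Tcf12 on chromosome 9 spans 269 kb and has 11 coding transcripts of 600 to 6299 bases. Tcf4 on chromosome 18 spans 346 kb and has 46 coding transcripts of 482 to 8577 bases, the most ways of assigning fragments among the 3 genes. How that assignment differed between the tumours was not tested. Tcf12 overlaps 7 annotated genes on its own strand and 4 on the other, and Tcf4 overlaps 1 on its own strand, and 0 of these are among the genes listed.

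The genes with the most similar pair of values, were taken by Euclidean distance over the 2 log2 values. Nearest to Tcf3 were Nup107 of the nuclear pore (40.8 and 41.8 FPKM in the gut and thymus tumours), Cpsf3, the endonuclease of messenger RNA 3′ end processing (41.1 and 42.0), Hibadh of valine breakdown (42.4 and 40.5) and Dnm1l of mitochondrial fission (41.0 and 42.3). Nearest to Tcf12 were the ribosomal protein pseudogene Rpl3-ps1 (204 and 181 FPKM), Bzw1 (200.7 and 185), Btbd1 (194 and 180.4) and Dnajc19 of mitochondrial protein import (206 and 174). The nearest 4 lay within 0.049 of Tcf3 and 0.062 of Tcf12. Tcf4 stood in a sparser region, where its nearest were the helicase gene Dhx33 (3.08 and 107 FPKM), the p53 target Zmat3 (2.51 and 97.4), Polg2, a subunit of the mitochondrial DNA polymerase (2.80 and 87.6), and the mitochondrial iron importer Slc25a37 (3.77 and 101), at distances from 0.081 to 0.31. Within a distance of 0.5 there were 386 other genes around Tcf3, 159 around Tcf12 and 19 around Tcf4. With 2 values per gene, likeness of this kind says only that the levels are similar.

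The direct regulators of E proteins were covered unevenly. The 4 Id genes and the 20 listed tissue-restricted bHLH partners, among them Tal1 and Lyl1, were not analysed here, so the genotype was not checked and inhibitor and E protein levels could not be set side by side. Of the 10 genes of the LMO and LDB complex, the adaptor that joins E protein dimers to GATA factors, 4 were measured. Of these, 0 were at least 4-fold apart, beside 19.9% of all genes tested, and 4 genes are too few to set against that share. Gata3, the GATA factor of T cells, was at 178 FPKM in the gut tumour and 377 in the thymus tumour, a difference of -1.08. Ldb1, the scaffold, was at 95.5 and 41.3 FPKM (1.19), Lmo4 at 78.5 and 48.0 (0.70) and Ssbp3, which stabilises LDB proteins, at 52.2 and 49.9 (0.06). The GATA gene was thus higher in the thymus tumour and that of the scaffold higher in the gut tumour, each by less than 4-fold.

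Of 11 listed co-regulators that E proteins recruit, 10 were measured, with 1 at least 4-fold higher in each direction and a median difference of -0.19 beside 0.05 for all genes tested. The 2 called are 20% of those measured, beside 19.9% of all genes tested. Among the activators, the acetyltransferase gene Ep300 was at 41.3 FPKM in the gut tumour and 53.9 in the thymus tumour, and Crebbp at 25.8 and 48.0, differences of -0.38 and -0.87. Kat2a was at 12.8 and 8.72 FPKM, Kat2b at 7.46 and 7.90, and Trrap, the scaffold of acetyltransferase complexes, at 60.6 and 30.4. None of these 5 activator genes was past 4-fold. Among the repressors, Cbfa2t2, of the ETO family that docks on the E protein activation domain, was at 5.43 and 37.5 FPKM, a difference of -2.58, or -1.93 with the authors' standard scores. Its relative Cbfa2t3 was at 8.73 and 11.0 FPKM, a difference of -0.30. The corepressor scaffold gene Sin3a was at 252 and 42.9 FPKM (2.53). Ncor1 was at 603 and 266 FPKM (1.18) and the deacetylase gene Hdac3 at 52.6 and 78.2 (-0.56). The genes past 4-fold were thus Cbfa2t2, toward the thymus tumour, and Sin3a, toward the gut tumour.

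Of 8 listed genes tied to E2A breakdown, 7 were measured, with 1 at least 4-fold higher in each direction and a median of 0.20. The 2 called are 28.6% of those measured, beside 19.9% of all genes tested. These calls became 1 toward the gut tumour and 0 toward the thymus tumour when rescaled to the same total, and 2 and 0 with the authors' standard scores. Stub1, the ubiquitin ligase CHIP, was at 131 FPKM in the gut tumour and 18.7 in the thymus tumour, a difference of 2.74, and its chaperone partner Hspa8 at 453 and 394 (0.20). Rbx1, the RING subunit of cullin ligases, was at 9.99 and 44.9 FPKM (-2.06), and fell short of 4-fold with 5 added to each FPKM, with either rescaling to a common total or with the authors' standard scores. Skp2, the subunit that recognises the substrate, was at 31.5 and 11.3 FPKM (1.40), Cks1b at 131 and 81.6 (0.68), Cul1 at 41.3 and 75.1 (-0.85) and Skp1a at 118 and 227 (-0.94). Tcf3 itself was level beside these.

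Of 27 listed genes reported to depend on E proteins in T cells, 13 were measured, with 8 above 0 and 5 below, 2 at least 4-fold higher in the gut tumour, 1 at least 4-fold higher in the thymus tumour, and a median of 0.12. The 3 called are 23.1% of those measured, beside 19.9% of all genes tested. Rescaled to the same total, 9 were above 0, with 4 calls toward the gut tumour, 0 toward the thymus tumour and a median of 0.63, and with the authors' standard scores 9 were above 0, with 3 and 0 calls and a median of 0.78. Higher in the gut tumour were the coreceptor gene Cd4, at 109 and 18.8 FPKM (2.47), and the gut- and thymus-homing receptor gene Ccr9, at 677 and 135 (2.32). The gene past 4-fold in the other direction was Foxo1, a factor of resting lymphocytes, at 2.01 and 14.7 FPKM (-2.38), and it fell short of 4-fold with 5 added to each FPKM, with rescaling to the same total or with the authors' standard scores. Zbtb16, which encodes PLZF of natural killer T cells, was at 37.3 and 9.07 FPKM, a difference of 1.93, and passed 4-fold with 0.1 added to each FPKM (2.03), when rescaled to the same total (2.43, or 2.09 without mitochondrial genes) and with the authors' standard scores (2.56). The CD3 chain genes, which are neighbours in the genome, did not move as a block, with Cd3g at 1017 and 341 FPKM (1.57), Cd3d at 165 and 158 (0.06) and Cd3e at 172 and 561 (-1.70). The other members lay between -1.03 for Bcl2l1 and 0.82 for Ets1, with Egr1 at 0.68, Gfi1 at 0.12, Cxcr4 at -0.40 and Notch1 at -0.61. Cd4, Cd3d, Cd3e and Cd3g also belong to the list of T cell identity genes, whose 20 members were all measured. These had a median of 1.15, with 17 above 0 and 3 below, 5 at least 4-fold higher in the gut tumour and 0 in the thymus tumour. Below 0 were Cd3e and both CD8 coreceptor genes, Cd8b1 at 17.8 and 55.4 FPKM (-1.58) and Cd8a at 4.27 and 9.68 (-1.02). All genes tested had a median of 0.05, with 7.84% at least 4-fold higher in the gut tumour and 12% in the thymus tumour. The part of the T cell identity shift in the E protein dependent genes was not tested.

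**Figure D3:**
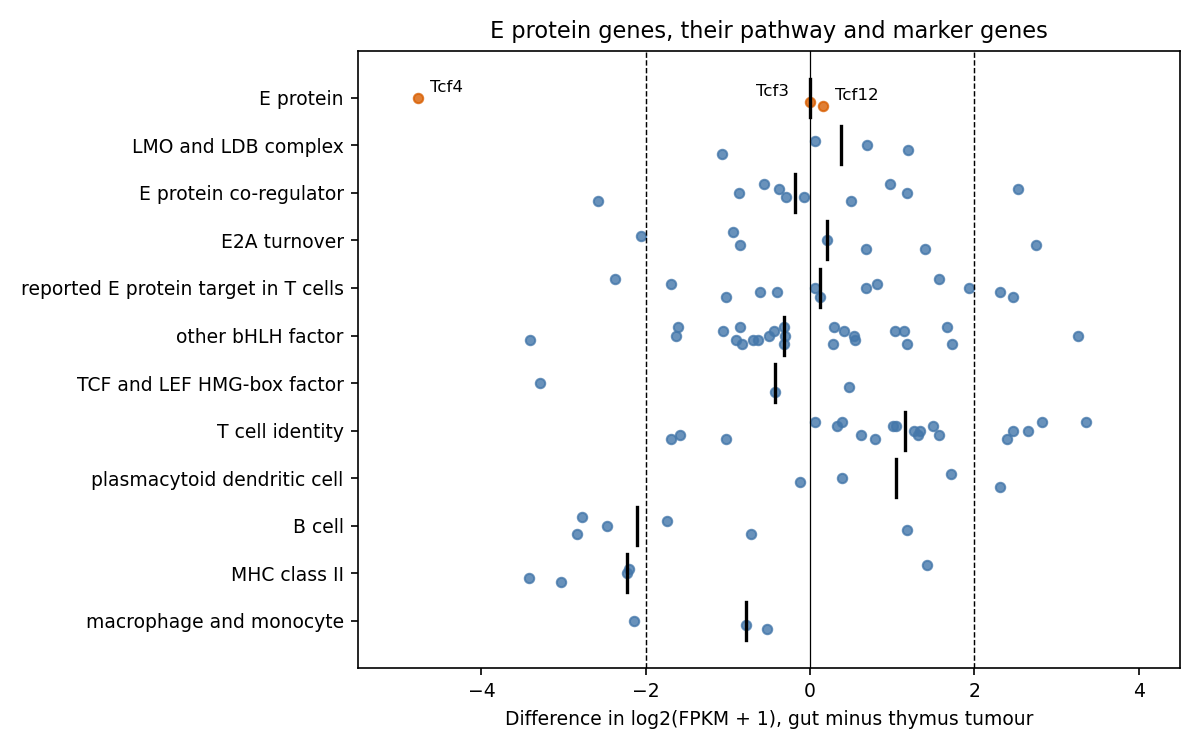
Difference in log2(FPKM + 1), gut minus thymus tumour, for the measured members of 12 gene lists, 1 point per gene and 1 library per tumour; black bars mark each list's median, and dashed lines a difference of 2 (4-fold) in either direction. Tcf4, at -4.78, lies farther to the left than every other gene shown, while Tcf3 and Tcf12 lie at 0.0049 and 0.15. The erythroid list is not shown. Of its genes, Hbb-bs (-5.59) and Hbb-bt (-5.16) were farther toward the thymus tumour than Tcf4, and Hba-a1 (-2.89) and Hba-a2 (-2.63) were not.

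Tcf4 had the widest difference of the 28 bHLH genes measured, as deposited and under the 7 other pseudocounts, scalings and scores run. By size of the difference Tcf12 was 27th and Tcf3 28th of them as deposited, but 16th and 17th when rescaled to the same total and 23rd and 18th with the authors' standard scores. The other 25, of 45 listed, had 1 gene at least 4-fold higher in each direction and a median of -0.32. Those called are 8% of the genes measured, beside 19.9% of all genes tested, whose median was 0.05. Mxd3, a partner of MAX, was at 113 FPKM in the gut tumour and 10.8 in the thymus tumour (3.27), and Arnt, the partner of hypoxia and dioxin receptor factors, at 4.69 and 59.6 (-3.41). The most abundant of these were Myc at 229 and 100.3 FPKM, Hif1a at 165 and 135, Usf2 at 86.6 and 158 and Max at 125 and 85.2, with differences from -0.86 for Usf2 to 1.18 for Myc. By FPKM among the bHLH genes, Tcf4 was 26th in the gut tumour and 4th in the thymus tumour, and Tcf3 was 11th and 10th.

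Symbols of this family are easily confused with those of the Wnt factors, which have an HMG box and no bHLH domain. RefSeq lists Tcf3 as a synonym of Tcf7l1 and Tcf4 as a synonym of Tcf7l2. Tcf7l2 was measured under its own symbol, so the row read here as Tcf4 is a separate gene. Tcf7l2 was at 2.30 FPKM in the gut tumour and 31.1 in the thymus tumour, a difference of -3.28, so both genes called TCF4 in the literature were at least 4-fold higher in the thymus tumour. Tcf7l1 was not analysed here. The other Wnt factors of this class were not past 4-fold, with Tcf7, which encodes TCF1 of T cells, at 89.3 and 64.0 FPKM (0.47) and Lef1 at 183 and 245 (-0.42). The remaining genes with a Tcf symbol, which belong to neither family, were Tcf25 at 122 and 54.7 FPKM (1.14), Tcf20 at 28.2 and 17.8 (0.63) and Tcf19 at 7.73 and 2.98 (1.13).

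Markers of cells other than T cells that use Tcf4 were set beside its value. A sort of lymphoma cells, as the series design has it, would remove these cells, and whether it was done for these libraries is not settled. B cell genes were higher in the thymus tumour where they were past 4-fold. Of 20 listed, 6 were measured, 3 of them at least 4-fold higher in the thymus tumour and 0 in the gut tumour. The shares over all genes tested were 12% in the thymus tumour and 7.84% in the gut tumour. The 6 genes had a median of -2.10, beside 0.05 for all genes tested. Their summed level was 1883 FPKM in the gut tumour and 11097 in the thymus tumour. The immunoglobulin light chain gene Igkc was at 1428 and 9811 FPKM (-2.78), the B cell coactivator gene Pou2af1 at 26.0 and 192 (-2.84) and the B cell receptor chain gene Cd79b at 42.9 and 242 (-2.47, or -1.93 when rescaled to the same total). The heavy chain gene Ighm was at 214 and 716 FPKM (-1.74), Cd37 at 49.4 and 82.1 (-0.72) and the B cell surface gene Cd72 at 122 and 53.5 (1.17). B cell transcripts were thus measured in both tumours and 5 of 6 were higher in the thymus tumour, as Tcf4 was, with Cd72 the exception. Among all 8245 genes tested, 4007 were higher in the thymus tumour. The defining B cell gene Pax5 was not analysed here.

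Of 17 listed plasmacytoid dendritic cell genes, 4 were measured, with a summed level of 1676 FPKM in the gut tumour and 537 in the thymus tumour and a median of 1.05. Irf8, a factor of dendritic and B cells, was at 78.4 and 85.6 FPKM (-0.13), Pacsin1 at 79.5 and 60.6 (0.39), Ptprcap at 841 and 256 (1.71) and Ccr9 at 677 and 135 (2.32). T cells also express Ptprcap and Ccr9, and the most specific listed genes of that cell type, Siglech among them, were not analysed here. Of the 4, 0 were at least 4-fold higher in the thymus tumour and 1 was at least 4-fold higher in the gut tumour, beside 12% and 7.84% of all genes tested. With so few genes measured, the level of this cell type was not tested.

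Genes of other antigen-presenting, stromal and blood cells differed in direction. The MHC class II list had 5 of its 11 genes measured. Of these, 4 were at least 4-fold higher in the thymus tumour, beside 12% of all genes tested. The summed level was 336 FPKM in the gut tumour and 1874 in the thymus tumour. Of those 4, 2 stayed past 4-fold when rescaled to the same total and 3 with the authors' standard scores. H2-Aa was at 45.9 and 502 FPKM, and H2-Ob, at 49.1 and 17.8, went the other way. The 3 macrophage and monocyte genes, of 12 listed, summed to 277 and 758 FPKM, with Lyz2 at 113 and 504. The 2 fibroblast genes, of 12 listed, summed to 118 and 268 FPKM, with Fn1 at 16.0 and 84.8. The 4 globin genes measured, of 12 erythroid genes listed, were all at least 4-fold higher in the thymus tumour, again beside 12% of all genes tested. They summed to 2425 and 96390 FPKM, led by Hbb-bs at 1916 and 92068. The dendritic cell, plasma cell, endothelial and epithelial lists had 1 or 2 measured genes each, of which 0 were past 4-fold, beside 19.9% of all genes tested. Ccr7 of dendritic cells was at 11.1 and 35.0 FPKM (-1.57) and Xbp1 of plasma cells at 23.3 and 37.9 (-0.68). In the other direction lay Pecam1 of endothelium, at 157 and 80.3 FPKM (0.96), and the epithelial genes Ccl25, at 39.1 and 19.8 (0.95), and Epcam, at 65.1 and 59.6 (0.13). No gene of the 8249 listed was at exactly 0 in either tumour, but some values were 0 in effect. The smallest of the gut tumour was 6.99 steps of double precision. Under 1 FPKM were 117 genes in the gut tumour and 25 in the thymus tumour. A value above 0 is therefore not particular to the marker genes measured, and does not by itself mean that a gene was detected. The lowest of the marker genes measured, Cd8a of the T cell list, was at 4.27 FPKM in the gut tumour. The part of any of these cell types in the Tcf4 value was not tested.

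Scaling moved Tcf3 with the bulk of genes, and Tcf12 too except with the authors' standard scores, and left Tcf4 past 4-fold. The median over all genes tested went from 0.05 to 0.57 when the libraries were rescaled to the same total, and to 0.48 with the authors' standard scores. Under the same 2 settings Tcf3 stood at 0.53 and 0.45, or -0.04 and -0.02 relative to the median, and Tcf12 at 0.69 and 0.26, or 0.12 and -0.22 relative to it. The sign of the Tcf3 difference thus depended on scaling, with -0.05 after rescaling by the median ratio and -0.02 by the upper quartile, and so did which of Tcf3 and Tcf12 was farther toward the gut tumour. Tcf4 stood at -4.31 and -4.20 under those settings, or -4.88 and -4.67 relative to the median. The median of the co-regulator list turned to 0.30 and 0.59 under these settings, and that of the other bHLH genes to 0.18 and 0.44, so the directions of these lists were not stable.

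**Figure D4:**
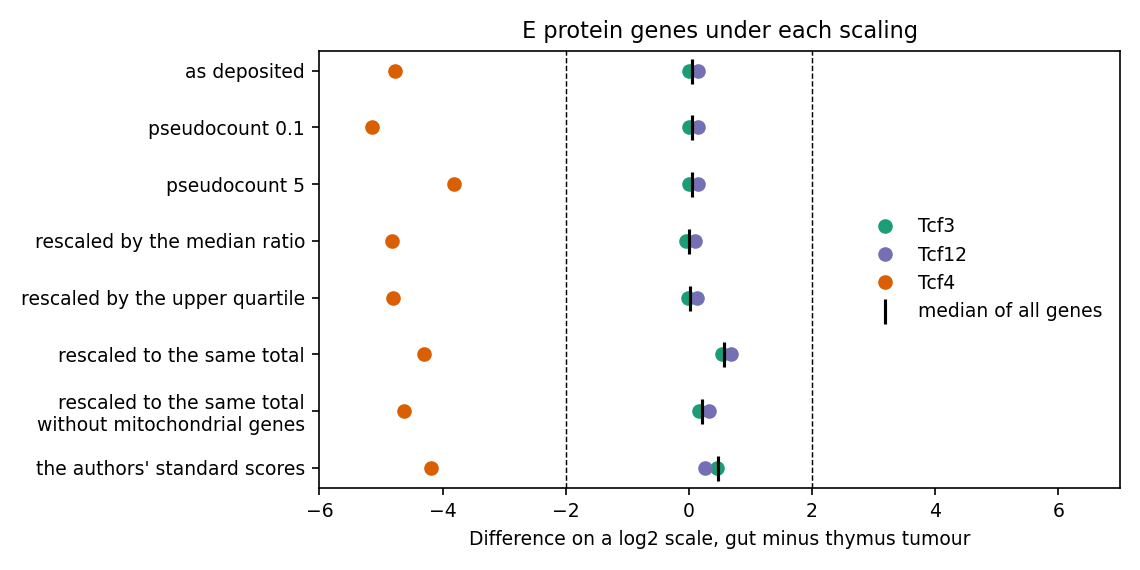
Difference on a log2 scale, gut minus thymus tumour, of Tcf3, Tcf12 and Tcf4 (points) and the median of all genes tested (bars) under the deposited values and 7 other settings, 1 library per tumour; dashed lines mark 4-fold. Tcf4 lies between -5.15 and -3.81 in every row, and Tcf3 moves with the median. Tcf12 does so too except with the authors' standard scores, where it lies at -0.22 relative to the median.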

How the data were processed

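RNA of 2 tumours was made into stranded, poly(A)-selected libraries, per the labels' protocols. The labels' protocols name lysed tumour tissue, whereas the series design speaks of sorted lymphoma cells. Reads were processed on mm9 with TopHat and Cufflinks, and with Picard and GATK, per the submitters' processing notes. Not given in the sources used here: versions, the annotation, whether strand was used in assigning fragments, and the rule for listing genes. Per the file headers, the authors deposited an FPKM and a standard score per gene and library. The deposited FPKM values are on a log2 scale, read as log2(FPKM + 1). The smallest value of the Peyer's patch tumour, called the gut tumour here, equals 6.99 steps of double precision in base 2, a near-whole number, whereas base 10 gives 23.2 and base e gives 10.1. Within a library the deposited score is linear in the log2 value, so it adds no further measurement.

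FPKM was computed from these values with Python 3.11.15 and pandas 2.3.3. The 4 of 8249 genes under 1 FPKM in both libraries were left out. Gut minus thymus differences were taken in log2(FPKM + 1), a scale that understates changes of low genes, and were called at 2. No test was run, as each group is 1 library. Ranks run from the highest FPKM. Scores were put on a log2 scale by the mean of both SDs, 2.63. The calculation was tested on simulated data.

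Named genes followed a fixed rule: the 3 members, every measured gene of the regulator, target, Wnt factor, plasmacytoid dendritic cell and B cell lists, the widest or most abundant members of the other lists, and the 4 genes nearest to each member, without predicted or clone-named genes, small RNAs, receptor segments or the 11 symbols turned into dates. Some genes the rule took are given by counts alone, and a few are not reported here and were left out of the lists. The members and the lists were chosen with earlier results of these data known. Alternatives were other pseudocounts, filters, thresholds and scalings, and the standard scores.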

Additional observations from a re-analysis of the deposited data

How the results depend on the processing

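Tcf4 was past 4-fold, and past 8-fold, under each setting run, with differences from -5.15 to -3.81, and neither Tcf3 (-0.05 to 0.53) nor Tcf12 (0.10 to 0.69) reached even 2-fold. A shift over 1.5-fold on the log2 scale came with a pseudocount of 5 for the Tcf4 difference (-3.81) and for its log2 ratio to Tcf3 (-3.81) and to Tcf12 (-3.96), since added values shrink low levels. The standard scores gave -4.46 for Tcf4 to Tcf12. They also turned the Tcf12 to Tcf3 ratio difference from 0.15 to -0.19, which is not past 4-fold either way. The scores start from log2(FPKM + 1), whereas the ratios use FPKM with nothing added. The scores also divide each library by its own SD, 2.84 in the gut tumour and 2.43 in the thymus tumour. The counts of all genes at least 4-fold higher in the gut and thymus tumours, 646 and 991, became 416 and 651 with a pseudocount of 5, 1197 and 641 rescaled to the same total, 1218 and 624 with the standard scores, 2036 and 2103 at 2-fold and 165 and 418 at 8-fold. Each of these settings recomputes the same deposited values, so the changes in the counts follow from the settings and add no measurement. Depth is unknown and there is 1 library per tumour, so no error can be estimated for the 2.87 FPKM of Tcf4 in the gut tumour. No paired analysis was possible because each group has 1 sample and the result comes from no test. Leaving out a library was not possible.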
